A study of Mus musculus with 9 samples.

Results

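A set of 9 imprinted genes that stand alone or with a few neighbours in the genome, rather than in the large imprinted clusters, was followed in caudal epiblast-like cells (CEpiLCs) of the mouse: Gnas, Nnat, Mcts2, Impact, Sfmbt2, Gab1, Slc38a4, Peg13 and Zdbf2. They were chosen by symbol from known imprinted loci, with the genotype differences of these same libraries already known, and Nnat and Zdbf2 had stood out in them. For that reason the genotype values of these 9 genes, out of 24736 genes in the table and 18902 with a count in at least 1 library, are given as a description with no p-value. Poly(A) RNA from 9 cultures was sequenced, 3 each of wild-type cells (WT), cells with the genotype Cdx1/2/4-/- (CdxKO) and cells with the genotype T/Bra-/- (T/BraKO). CDX1, CDX2 and CDX4 are the homeodomain factors of the posterior body, and T/BRA (Brachyury, the gene T) is the T-box factor of the primitive streak. The study's methods derive all its embryonic stem cell lines from the male HM1 TetON line, which was itself the WT control, and no label names a second line for a genotype, so a line and its mutation cannot be told apart. All 9 cultures had the same treatment. They were kept for 2 days in N2B27 medium with 10 ng/ml bFGF and 5 uM LGK974, which blocks WNT secretion, then had the GSK3 inhibitor CHIR99021 added to the same factors to switch WNT signalling on, and were collected at 72 h. The stem cells had been grown on inactivated mouse embryonic fibroblasts before differentiation.

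An imprinted gene is read mainly from the copy inherited from one parent, because the other copy carries a silencing mark laid down in the germ line. The paternal copy is the active one for Nnat, Mcts2, Impact, Peg13 and Zdbf2. For Nnat, Mcts2, Impact and Peg13 the mark is DNA methylation on the maternal copy. ZFP57, a zinc finger protein of early embryos and stem cells, binds the methylated form of a short motif in many such control regions and keeps the methylation in place. Sfmbt2, Gab1 and Slc38a4 belong to a group in which a repressive histone mark inherited from the oocyte silences the maternal copy, mostly in extraembryonic tissues. Gnas makes several transcripts, some of them read from the maternal and some from the paternal copy, and its main product is read from both copies in most tissues. The counts used here add up both parental copies of a gene, so none of the values below says which copy was read.

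The ZFP57 motif, TGCCGC, was searched on both strands of promoter windows of RefSeq genes (build GRCm38.p6, the patch release of mm10), each running from 250 bases before to 50 bases after a transcript start. A window was found for 7 of the 9 genes, and Impact and Peg13 were not matched. The motif lay in the Nnat window, the Mcts2 window and the upstream of the 2 Zdbf2 windows, and in no window of Gnas, Sfmbt2, Gab1 or Slc38a4, against 11.6% of 32851 promoter windows of all genes. That is a share of windows, while the 7 genes had from 1 window (Nnat and Mcts2) to 4 windows (Gnas) each. So the 3 genes with the motif cannot be set against it as a share of genes. The 3 windows with the motif are printed because they carry it. Each is on the plus strand, 5′ to 3′, and the capitals mark TGCCGC or its reverse complement.
Nnat, chr2:157559828-157560127: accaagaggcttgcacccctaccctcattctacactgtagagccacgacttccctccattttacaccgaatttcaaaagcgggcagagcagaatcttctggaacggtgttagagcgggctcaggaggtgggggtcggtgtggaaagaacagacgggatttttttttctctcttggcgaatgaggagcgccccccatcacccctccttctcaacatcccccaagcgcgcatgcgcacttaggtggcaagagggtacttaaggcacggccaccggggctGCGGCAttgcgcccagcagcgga
Mcts2, chr2:152686898-152687197: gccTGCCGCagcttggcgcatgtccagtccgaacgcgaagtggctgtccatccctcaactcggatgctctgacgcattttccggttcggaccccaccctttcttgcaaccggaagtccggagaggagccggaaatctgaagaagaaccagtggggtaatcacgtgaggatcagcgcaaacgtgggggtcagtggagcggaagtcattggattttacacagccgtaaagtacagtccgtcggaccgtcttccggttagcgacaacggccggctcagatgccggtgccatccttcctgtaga
Zdbf2, chr1:63200108-63200407: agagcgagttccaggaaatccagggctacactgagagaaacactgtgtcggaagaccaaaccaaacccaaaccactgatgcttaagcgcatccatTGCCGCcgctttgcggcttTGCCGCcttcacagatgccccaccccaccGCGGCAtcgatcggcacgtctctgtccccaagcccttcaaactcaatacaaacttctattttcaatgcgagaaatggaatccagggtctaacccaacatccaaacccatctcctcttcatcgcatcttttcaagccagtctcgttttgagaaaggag
The Nnat window held 1 match, close to the transcript start, the Mcts2 window held 1 match at its upstream end, and the Zdbf2 window held 3 matches near its middle. CG dinucleotides, the substrate of the methylation, numbered 17 in the Nnat window, 25 in the Mcts2 window and 15 in this Zdbf2 window, and the other Zdbf2 window, chr1:63273019-63273318, held 38 CG and no match. Over all promoter windows the median was 7 CG, and 43.5% held at least 10. A CDX-type motif, TTTATNG (N is any base), was in 3 of the 4 Gnas windows, 2 of which overlap (chr2:174327499-174327798 and chr2:174327518-174327817) and may hold the same match, and a T-box motif, TCACACCT, was in no window of these genes, against 10.9% and 1.28% of all windows. No binding was measured here, and the windows say nothing of which factor was present.

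The libraries held between 25124344 and 34705361 expected counts. The targeted genes followed their labels. T had a mean normalised read count of 12243 in WT, and the T/BraKO mean was 2295 (fitted log2 fold change −2.42, SE 0.34, DESeq2 adjusted p = 7.83e-10), while in CdxKO the mean of Cdx4 went from 118 to 1.64, that of Cdx2 from 4199 to 1031 and that of Cdx1 from 536 to 272. The deposited cell type label was checked against marker lists: the 11 caudal epiblast markers summed to 1197 to 1440 TPM in WT, 793 to 1307 TPM in the CdxKO and 928 to 1306 TPM in the T/BraKO libraries. That list holds the 4 targeted genes themselves, and without them the 7 others summed to 680 to 822 TPM in WT, 531 to 730 TPM in the CdxKO and 682 to 957 TPM in the T/BraKO libraries. Among these others DESeq2 called Wnt3a (log2 fold change −1.42, adjusted p = 0.00046) and Wnt8a (−0.77, adjusted p = 0.00511) lower in CdxKO than in WT. In T/BraKO against WT it called Fgf8 (−1.56, adjusted p = 5.01e-07) and Wnt3a (−1.18, adjusted p = 0.00726) lower and Sp5 (0.70, adjusted p = 6.19e-06) higher. The 7 trophoblast markers, a lineage in which Sfmbt2, Gab1 and Slc38a4 are imprinted, summed to no more than 10.7 TPM in any library, and Hsd3b6, Prl3d1 and Tpbpa were listed at 0 in all 9. The 10 fibroblast markers summed to 99.2 to 132 TPM in WT, against 101 to 136 TPM in CdxKO and 77.8 to 105 TPM in T/BraKO, none of them at 0. Of these 10, DESeq2 called 3 higher in CdxKO than in T/BraKO, Col1a1 (log2 fold change 1.91, adjusted p = 2.32e-05), Col1a2 (1.26, adjusted p = 0.0267) and Postn (3.89, adjusted p = 1.36e-05), and Thy1 lower (−1.20, adjusted p = 2e-05). In T/BraKO against WT it called 3 lower, Postn (log2 fold change −2.58, adjusted p = 0.0491), Pdgfrb (−0.91, adjusted p = 0.0464) and Mmp2 (−0.54, adjusted p = 0.00466), and in CdxKO against WT it called none with genotype alone, and Col1a1 and Col1a2 higher and Thy1 lower with the block.

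Markers of 2 mesoderm types moved with genotype as well. The 7 paraxial mesoderm markers summed to 64.8 to 121 TPM in WT, against 40.0 to 135 TPM in CdxKO and 15.35 to 23.7 TPM in T/BraKO. Of these markers 4 were lower in T/BraKO than in WT: Tbx6 (log2 fold change −3.41, DESeq2 adjusted p = 2.05e-07), Msgn1 (−5.58, DESeq2 adjusted p = 8.59e-12), Dll1 (−1.05, DESeq2 adjusted p = 0.0015) and Rspo3 (−1.95, DESeq2 adjusted p = 0.00108). The 8 markers of lateral and extraembryonic mesoderm summed to 20.2 to 32.1 TPM in WT cells, 23.7 to 28.8 TPM in CdxKO cells and 14.4 to 24.5 TPM in T/BraKO cells. In CdxKO against WT Hand1 rose from a mean of 35.6 to 194 normalised counts (log2 fold change 2.44, DESeq2 adjusted p = 2.58e-14) and Msx1 fell (−1.91, DESeq2 adjusted p = 0.038). No marker of either mesoderm list was at 0 in all libraries of a genotype. The part of these cells, and of fibroblasts, in the values of the 9 genes was not tested. The 7 epiblast markers summed to 946 to 1538 TPM in WT, 1098 to 1633 in CdxKO and 1331 to 1954 in T/BraKO. Of the epiblast, naive pluripotency and endoderm markers, DESeq2 with genotype alone called only Klf4. It was higher in CdxKO than in WT (log2 fold change 0.62, adjusted p = 0.0267). Among the trophoblast markers Tfap2c was called lower in CdxKO than in T/BraKO (−1.06). With the block more were called, such as Pou5f1 higher and Foxa2 lower in T/BraKO against WT.

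On the length-scaled TPM of the deposited table, Gnas was by far the most abundant of the 9 genes in WT cells, at a mean of 906 ± 28.7 TPM (SD, n = 3, as for the other values here). Impact followed at 138 ± 16.04 TPM, and neither overlapped its neighbour in the order. Slc38a4 at 81.1 ± 5.47 TPM, Zdbf2 at 71.5 ± 7.82 TPM and Gab1 at 66.2 ± 4.59 TPM came next, and each of these overlapped the gene after it in the library values except Gab1. Nnat at 39.0 ± 6.21 TPM and Mcts2 at 30.8 ± 3.48 TPM overlapped each other, and Sfmbt2 at 12.4 ± 1.58 TPM and the noncoding Peg13 at 1.14 ± 0.175 TPM closed the order without overlap. In CdxKO the order changed in 1 main respect: Nnat moved from the sixth place to the third, at 123 ± 32.8 TPM, above Zdbf2 at 96.5 ± 1.38 TPM, with which it overlapped in 1 library. In T/BraKO Nnat at 51.4 ± 8.73 TPM and Gab1 at 51.4 ± 8.50 TPM stood side by side, the first higher and the second lower than in WT.

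**Figure D1:**
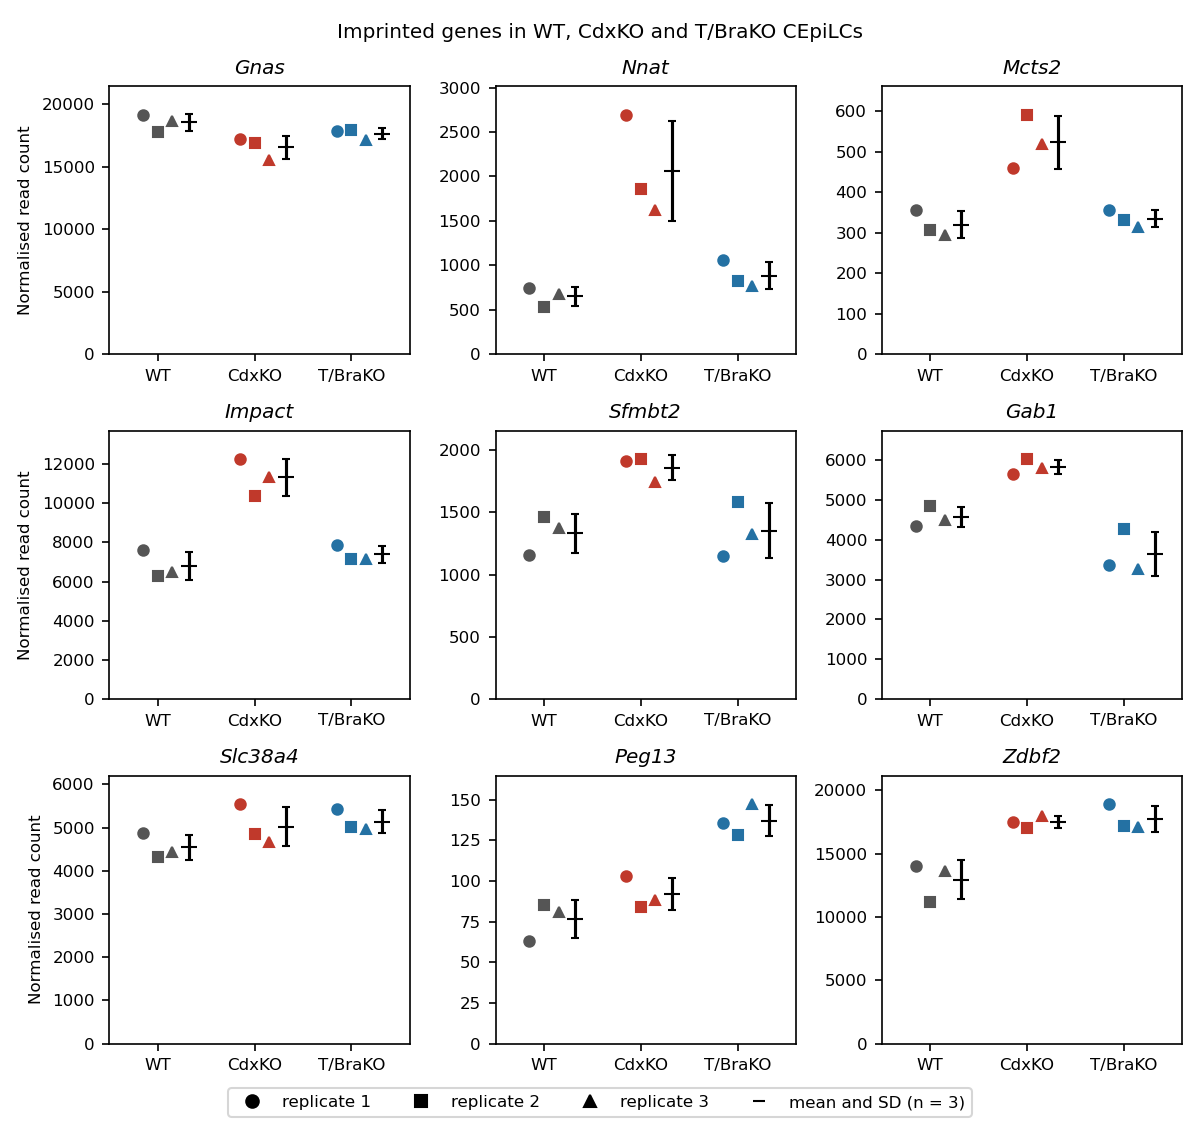
Normalised read counts (vertical axes, from 0, DESeq2 size factors) of the 9 imprinted genes in every library; circles, squares and triangles are replicates 1, 2 and 3, and the bar beside each genotype is the mean with 1 SD (n = 3). The 3 CdxKO libraries lie above all WT and T/BraKO libraries for Nnat, Mcts2, Impact, Sfmbt2 and Gab1, both mutants lie above WT for Zdbf2, and T/BraKO lies above both other genotypes for Peg13.

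Nnat, Mcts2, Impact and Zdbf2 were called higher in CdxKO than in WT, and Peg13 and Zdbf2 were called higher in T/BraKO than in WT, with no test of one contrast against the other. The log2 fold change of CdxKO against WT was positive for 8 genes, all but Gnas, with a median of 0.44 against −0.0023 over all genes tested. By DESeq2 with genotype as the only term, 4 of the 9 were called higher in CdxKO (Nnat, Mcts2, Impact and Zdbf2) while 0.335% of 16737 genes tested were; no member was called lower, against 0.358% of genes. At an unadjusted p under 0.05, 6 were higher and 1 was lower, and edgeR called 2 higher and none lower. The share of all genes at that unadjusted threshold was not counted, here or below. As the members were chosen with these contrasts known, such counts of members describe these libraries and are no test of the set. With the replicate number as a block, 6 were called higher (Sfmbt2 and Gab1 in addition) and 1 lower (Gnas), against 3.40% and 1.91% of genes. All 3 CdxKO libraries lay above all 3 WT libraries for Nnat, Mcts2, Impact, Sfmbt2, Gab1 and Zdbf2, and below them for Gnas. The share of all genes that separate in this way was not counted. Since poly(A) RNA of whole cultures was sequenced, a change in the share of cells that use a gene and a change in RNA per cell cannot be told apart.

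In T/BraKO against WT the median log2 fold change was 0.12, against 0 over all genes tested. Peg13 and Zdbf2 were called higher, against 0.148% of 18900 genes, and no member was called lower by DESeq2, against 0.937% of genes. At an unadjusted p under 0.05, 3 were higher and 1 was lower, and edgeR called none in either direction. With the replicate block 4 were called higher (Nnat and Slc38a4 in addition) and 1 lower (Gab1), against 4.83% and 4.85% of genes. CdxKO and T/BraKO were both compared with the same 3 WT libraries, so the 2 columns of differences share their controls.

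Between the mutants themselves, Nnat, Mcts2, Impact and Gab1 were called higher in CdxKO than in T/BraKO, against 2.52% of 16016 genes. None was called lower by DESeq2, against 0.962% of genes, with 1 lower at an unadjusted p under 0.05 and none lower by edgeR. The block added Sfmbt2 to the higher calls, against 7.75% of genes higher and 6.90% lower. For Peg13 all CdxKO libraries lay below all T/BraKO libraries.

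**Figure D2:**
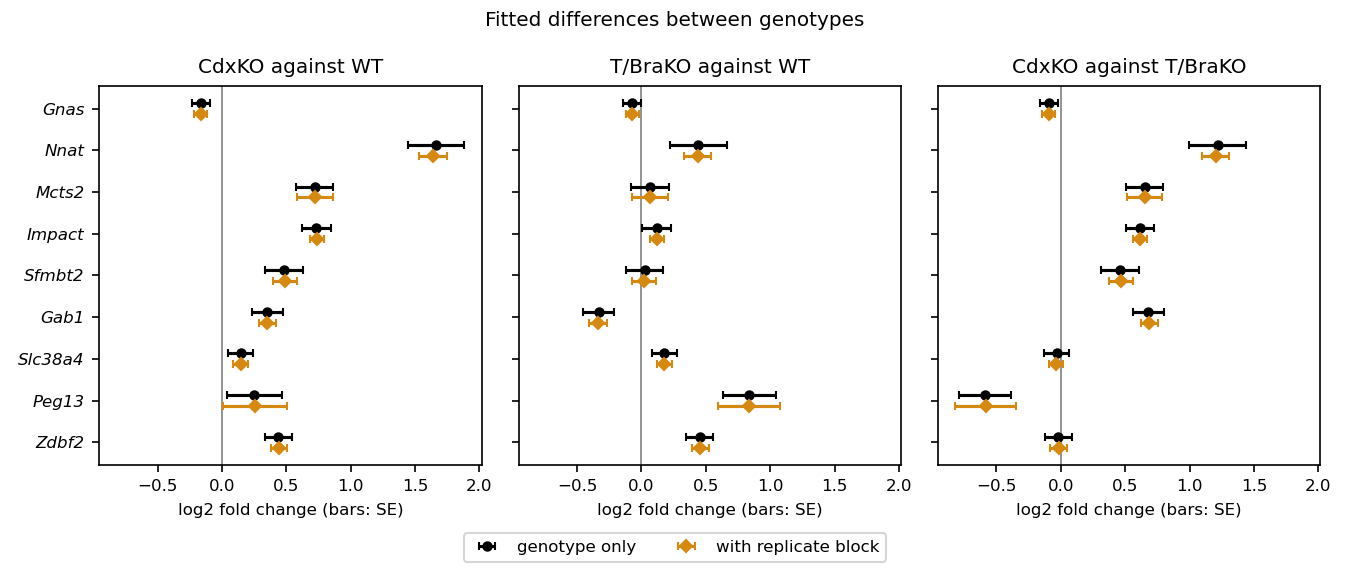
Log2 fold changes (horizontal axes, DESeq2, bars are 1 SE) of the 9 genes in CdxKO against WT, T/BraKO against WT and CdxKO against T/BraKO, fitted with genotype alone (black circles) and with the replicate block added (orange diamonds). The estimates of both fits nearly coincide, and the SE of Nnat in CdxKO against WT goes from 0.22 to 0.11 with the block.

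Nnat showed the widest difference of the 9 genes. It encodes neuronatin, a small membrane protein of the endoplasmic reticulum, and lies at chr2:157560078-157562525 inside an intron of Blcap, on the other strand. Its normalised read counts were 741, 536 and 674 in WT replicates 1, 2 and 3, then 2695, 1855 and 1624 in CdxKO and 1060, 824 and 770 in T/BraKO. All CdxKO libraries lay well above the rest, and the T/BraKO libraries lay just above the WT libraries without overlap. Its log2 fold change was 1.66 (SE 0.22), a fold of 3.16, for CdxKO against WT, 0.44 (SE 0.22) for T/BraKO against WT and 1.22 (SE 0.22) for CdxKO against T/BraKO. The T/BraKO difference from WT was called only with the replicate block, by DESeq2 or edgeR.

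Blcap, the host gene of Nnat, was called in no comparison. Its normalised read counts lay between 995 and 1064 in WT cells, 990 and 1219 in CdxKO cells and 961 and 1083 in T/BraKO cells, and the log2 fold change of CdxKO against WT was 0.09 (95% confidence interval −0.12 to 0.30, DESeq2 adjusted p = 1). The TPM of Nnat over that of Blcap was 1.21, 0.889 and 1.18 in the WT libraries and 3.81, 2.96 and 2.85 in CdxKO. In T/BraKO this ratio was 1.71, 1.48 and 1.23, above every WT value. Nnat is also known as a gene of the developing nervous system. The 8 neural markers summed to 114 to 141 TPM in WT, 121 to 156 TPM in the CdxKO and 93.9 to 149 TPM in the T/BraKO libraries, ranges that overlap, with Nes the highest and 4 of the 8 under 1 TPM in each genotype. DESeq2 called none of the 8 with genotype alone. With the block it called Irx3 (log2 fold change −1.09, adjusted p = 5.63e-05) and Zfp521 (−0.44, adjusted p = 7.8e-05) lower in CdxKO against WT. It also called Irx3 lower in T/BraKO against WT (−0.84, adjusted p = 0.00258) and Zfp521 lower in CdxKO against T/BraKO (−0.30, adjusted p = 0.0106).

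Mcts2 is a retrogene, an intronless copy of the X-linked Mcts1, and lies at chr2:152687148-152687946 within an intron of H13, on the same strand. The proteins of this family act with DENR to restart translation on an mRNA. Mcts2 normalised read counts were 357, 307 and 294 in WT, against 460, 591 and 519 in CdxKO and 356, 332 and 315 in T/BraKO. Every CdxKO library was above every other library, while WT and T/BraKO overlapped almost wholly. The log2 fold change was 0.72 (SE 0.15) for CdxKO against WT, a fold of 1.65, 0.65 (SE 0.14) for CdxKO against T/BraKO and 0.07 (SE 0.15) for T/BraKO against WT. The call against WT was lost in edgeR.

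Whether reads could have been shared between Mcts2 and its parent was checked on transcript sequences. None of the 837 windows of 76 bases, the read length, in the Mcts2 transcript occurred in another gene, so full-length reads without errors could be placed. The authors' trimming kept reads down to 25 bases. Of 888 Mcts2 windows of that length, 92 (10.4%) were shared with 2 other genes, 5 of them with Mcts1. Reads from unspliced H13 RNA cannot be told from Mcts2 reads by strand. Mcts1 itself had a log2 fold change of 0.07 in CdxKO against WT (95% confidence interval −0.13 to 0.27) and 0.11 in T/BraKO against WT. The TPM of Mcts2 over that of Mcts1 was 0.612, 0.575 and 0.540 in WT cells, 0.851, 1.01 and 0.836 in CdxKO cells and 0.611, 0.573 and 0.505 in T/BraKO cells. Of the 3 genes of this family other than Mcts2 (Mcts1, Denr and Eif2d), none was called in any comparison by DESeq2, with or without the block, none had an unadjusted p under 0.05, and edgeR called none.

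H13, the host of Mcts2, was lower in CdxKO. It encodes signal peptide peptidase, and at this locus the Mcts2 promoter is known to affect where H13 transcripts end. H13 normalised read counts were 2186, 1689 and 2258 in WT, 1364, 1063 and 1452 in the CdxKO and 1914, 1559 and 2181 in the T/BraKO libraries. All CdxKO libraries lay below all others. The log2 fold change of CdxKO against WT was −0.66 (SE 0.18, DESeq2 adjusted p = 0.0448, and 6.15e-18 with the replicate block), and that of CdxKO against T/BraKO was −0.54 (adjusted p = 0.0734 by DESeq2, and 1.79e-12 with the block). The call against WT was lost in edgeR (adjusted p = 0.418) and without WT replicate 1 (0.588), WT replicate 3 (0.386), CdxKO replicate 1 (0.224), CdxKO replicate 2 (0.272) or T/BraKO replicate 1 (0.104), all but the first by DESeq2. The TPM of Mcts2 over that of H13 was 0.908, 0.954 and 0.694 in WT, against 1.74, 2.84 and 1.77 in CdxKO and 0.974, 1.158 and 0.781 in T/BraKO.

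Peg13, a noncoding RNA read from an intron of Trappc9 on the same strand (chr15:72805602-72810324), had the lowest level of the 9 genes and its highest values in T/BraKO. Its normalised read counts were 63.0, 85.1 and 81.1 in WT cells, 103, 83.9 and 88.4 in CdxKO cells and 136, 128 and 147 in T/BraKO cells. The T/BraKO libraries lay above all others, and WT and CdxKO overlapped. Fitted on the log2 scale, the difference was 0.84 (SE 0.21) for T/BraKO against WT, a fold of 1.79, 0.25 (SE 0.21) for CdxKO against WT and −0.59 (SE 0.20) for CdxKO against T/BraKO. The call in T/BraKO against WT was lost in edgeR and without WT replicate 1, T/BraKO replicate 1 or T/BraKO replicate 3. Trappc9 itself had a log2 fold change of −0.20 in T/BraKO against WT (95% confidence interval −0.66 to 0.26). The TPM of Peg13 over that of Trappc9 ran from 0.0582 to 0.0976 in WT, 0.0624 to 0.105 in the CdxKO and 0.122 to 0.191 in the T/BraKO libraries. Reads from unspliced Trappc9 RNA cannot be told from Peg13 reads by strand.

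**Figure D3:**
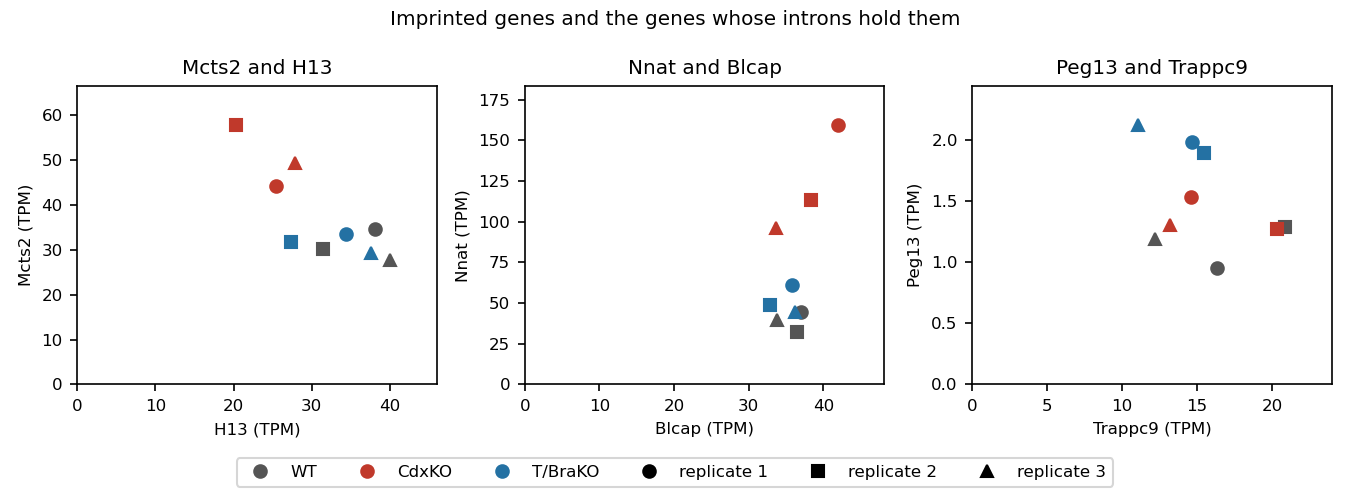
TPM of Mcts2, Nnat and Peg13 (vertical axes) against the TPM of the genes whose introns hold them, H13, Blcap and Trappc9 (horizontal axes), 1 point per library, colour for genotype and shape for replicate number. The 3 CdxKO libraries sit to the upper left for Mcts2 and H13, above the others for Nnat and Blcap with 2 of them also to the right, and close to the WT libraries for Peg13 and Trappc9.

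The 33 neighbours and overlapping genes listed for these loci, 32 of them in the table, were counted in the same way. In CdxKO against WT 1 of 29 tested was called, H13, which was lower, against 0.358% of all genes, and the median log2 fold change was 0.04. In T/BraKO against WT none of 31 was called by DESeq2, where 0.148% of all genes were higher and 0.937% lower, with 1 at an unadjusted p under 0.05 and none by edgeR. In CdxKO against T/BraKO 2 of 28 were called, 1 in each direction, against 2.52% and 0.962% of all genes. Itih5, beside Sfmbt2, was higher (log2 fold change 0.87, SE 0.26, DESeq2 adjusted p = 0.0337), and Chrac1, near Trappc9, was lower (log2 fold change −0.36, SE 0.11, DESeq2 adjusted p = 0.0317). Chrac1 lost its call whichever single library was left out, with adjusted p up to 0.28, and Itih5 lost it without WT replicate 1 or 3, CdxKO replicate 1 or 3, or T/BraKO replicate 1 or 2, with adjusted p up to 0.297. Both lost it in edgeR. With the replicate block 2 of 27 were called higher and 1 lower in CdxKO against WT (3.40% and 1.91% of all genes), 1 of 25 higher and 1 lower in T/BraKO against WT (4.83% and 4.85%), and 3 of 27 higher and 2 lower in CdxKO against T/BraKO (7.75% and 6.90%).

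Impact was the most abundant of the 9 genes whose libraries separated CdxKO from both other genotypes. It lies at chr18:12954690-12992950, and its protein binds GCN1 and holds back GCN2, the kinase that senses uncharged tRNA and, through eIF2alpha, raises translation of ATF4. Impact normalised read counts were 7635, 6298 and 6499 in WT, against 12237, 10374 and 11362 in CdxKO and 7891, 7138 and 7141 in T/BraKO. The lowest CdxKO library stood above the highest of the other 6. The log2 fold change was 0.73 (SE 0.11) for CdxKO against WT, a fold of 1.66, 0.12 (SE 0.11) for T/BraKO against WT and 0.62 (SE 0.11) for CdxKO against T/BraKO. Its call in CdxKO against WT was kept in every alternative run, edgeR and the omission of each library included. As Impact was chosen with this contrast known, this describes these libraries and is no test.

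Among 16 genes of the GCN2 and ATF4 response, none was called in any of the 3 comparisons with genotype alone by DESeq2 or edgeR. In CdxKO against WT 7 of them were higher at an unadjusted p under 0.05, and the median log2 fold change was 0.39. With the replicate block 6 were called higher and none lower, against 3.40% and 1.91% of all genes. These were Atf4 (log2 fold change 0.47, adjusted p = 8.91e-07), Asns (0.52, adjusted p = 0.00602), Sesn2 (0.21, adjusted p = 0.0494), Psat1 (0.21, adjusted p = 0.0214), Shmt2 (0.29, adjusted p = 0.00119) and Slc7a11 (1.302, adjusted p = 1.31e-05), all by DESeq2. Asns makes asparagine, Psat1 and Shmt2 act in serine and glycine synthesis, and Slc7a11 carries cystine into the cell. Of the genes for the sensor itself, Eif2ak4, which encodes GCN2, had a log2 fold change of −0.20 and Gcn1l1, which encodes GCN1, one of −0.05 in CdxKO against WT, neither called with or without the block. In T/BraKO against WT the same list had a median log2 fold change of 0.17 and, with the block, 1 gene called higher and 1 lower, against 4.83% and 4.85% of all genes. In CdxKO against T/BraKO the median was 0.37, and the block called 5 higher and 1 lower, against 7.75% and 6.90%.

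Gab1, Sfmbt2 and Slc38a4 are the genes with the histone type of imprint. Gab1 (chr8:80764431-80880519) encodes a docking protein that links growth factor receptors to SHP2 and PI3-kinase. Gab1 normalised read counts were 4352, 4858 and 4497 in WT cells, 5662, 6015 and 5805 in CdxKO cells and 3363, 4274 and 3269 in T/BraKO cells. The 3 genotypes did not overlap, with CdxKO highest and T/BraKO lowest. It had a log2 fold change of 0.35 (SE 0.12) for CdxKO against WT and −0.33 (SE 0.12) for T/BraKO against WT, each called only with the replicate block or in single alternatives, and 0.68 (SE 0.12) for CdxKO against T/BraKO, which was called with genotype alone. Of the 10 fibroblast markers, 4 (Col1a1, Col1a2, Lum and Postn) had the same order of genotype means and the others did not, and their part in the Gab1 values was not tested. Lum had means of only 6.07 normalised counts in CdxKO, 6.01 in WT and 4.59 in T/BraKO, so its order says little.

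Of 14 adaptor and receptor genes that act with GAB1, Kit alone was called by DESeq2 with genotype alone, lower in CdxKO. With the block Gab2, Shc1, Pik3r1 or Egfr was called as well in a comparison that involved T/BraKO. Kit, a receptor tyrosine kinase, had mean normalised read counts of 1433 in WT, against 997 in CdxKO and 1750 in T/BraKO, with log2 fold changes of −0.52 (SE 0.12, DESeq2 adjusted p = 0.00667) for CdxKO against WT and −0.81 (SE 0.12, DESeq2 adjusted p = 1.28e-08) for CdxKO against T/BraKO. The call against WT was lost in edgeR (adjusted p = 0.27) and in 5 of the 9 omissions of a library, those of WT replicates 1, 2 and 3 and CdxKO replicates 1 and 3, with adjusted p up to 0.171. In T/BraKO against WT none of the 14 was called by DESeq2 with genotype alone, with 2 at an unadjusted p under 0.05 and none by edgeR. With the block Kit was called higher and Gab2 lower in that comparison, against 4.83% and 4.85% of all genes. In CdxKO against T/BraKO the block called 2 of the 14 higher and 2 lower, against 7.75% and 6.90%.

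Sfmbt2 (chr2:10370440-10595253) encodes a Polycomb-group protein that works with the DNA-binding factor YY1. Sfmbt2 normalised read counts were 1158, 1464 and 1372 in WT cells, 1912, 1926 and 1745 in CdxKO cells and 1153, 1587 and 1323 in T/BraKO cells. The CdxKO libraries lay above all others, and WT and T/BraKO covered the same range. Sfmbt2 had a log2 fold change of 0.48 (SE 0.15) for CdxKO against WT and 0.46 (SE 0.15) for CdxKO against T/BraKO, both called only with the block or in single alternatives, and 0.02 (SE 0.15) for T/BraKO against WT. Of 10 genes of Polycomb and YY1 complexes, none was called by DESeq2 with genotype alone, none had an unadjusted p under 0.05, and edgeR called none. With the block Phc1 was called higher in CdxKO against T/BraKO (log2 fold change 0.18, adjusted p = 0.0178 by DESeq2). Yy1 itself had a log2 fold change of 0.04 in CdxKO against WT (95% confidence interval −0.10 to 0.18).

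Slc38a4 (chr15:96994816-97055956), encodes a sodium-coupled carrier of neutral amino acids. Slc38a4 normalised read counts were 4870, 4317 and 4434 in WT, 5540, 4855 and 4677 in the CdxKO and 5435, 5006 and 4972 in the T/BraKO libraries. WT and CdxKO overlapped, and T/BraKO lay just above WT. On the log2 scale the difference was 0.15 (SE 0.10) for CdxKO against WT and 0.18 (SE 0.10) for T/BraKO against WT, and that of CdxKO against T/BraKO was −0.03 (95% confidence interval −0.23 to 0.16). Among 12 other amino acid carriers, none was called in any comparison by DESeq2 with genotype alone or by edgeR, with at most 2 in a comparison at an unadjusted p under 0.05. With the block 3 were called higher in CdxKO against WT (Slc3a2, Slc7a1 and Slc1a5), against 3.40% of all genes. It also called 1 higher in T/BraKO against WT (4.83% of all genes), and 1 higher and 1 lower in CdxKO against T/BraKO (7.75% and 6.90%).

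Gnas had slightly lower counts in CdxKO than in WT. It covers chr2:174284320-174346744, its main product is the alpha subunit of the Gs protein that couples receptors to adenylyl cyclase, and the symbol here adds up its alternative transcripts. Gnas normalised read counts were 19174, 17797 and 18707 in WT, against 17237, 16875 and 15551 in CdxKO and 17902, 17915 and 17184 in T/BraKO. The highest CdxKO library was below the lowest WT library, and T/BraKO overlapped both. The log2 fold change was −0.17 (SE 0.07) for CdxKO against WT, called only with the block, and −0.07 (SE 0.07) for T/BraKO against WT. Nespas, the antisense RNA of the locus, was at a mean of 35.7 normalised counts in WT and was called in no comparison.

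Downstream of Gs, the cAMP genes that were called involved T/BraKO. Of 31 genes, none was called in CdxKO against WT by DESeq2 or edgeR, and none had an unadjusted p under 0.05. Pde4d, a phosphodiesterase that breaks down cAMP, was lower in T/BraKO, at a mean of 258 normalised counts against 613 for WT and 670 for CdxKO (log2 fold change against WT −1.25, SE 0.21, DESeq2 adjusted p = 2.38e-06). In CdxKO against T/BraKO, Pde4d was higher (log2 fold change 1.37, DESeq2 adjusted p = 3.04e-08), with Adcy3, an adenylyl cyclase (0.61, DESeq2 adjusted p = 0.0209), and Pkia, an inhibitor of protein kinase A (0.51, DESeq2 adjusted p = 0.0332). Adcy3 lost its call in edgeR and without CdxKO replicate 1 or 3 or T/BraKO replicate 1 or 2, with adjusted p up to 0.22, and Pkia in edgeR and without CdxKO replicate 1 or 2 or T/BraKO replicate 1 or 3, with adjusted p up to 0.24. With the block 1 of these genes was called higher and 3 lower in T/BraKO against WT, against 4.83% and 4.85% of all genes. In CdxKO against T/BraKO the block called 7 higher and 2 lower, against 7.75% and 6.90%.

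Zdbf2 was called higher in both mutants. It lies at chr1:63200358-63314576 and encodes a zinc finger protein whose long transcript in early embryos starts upstream of the canonical promoter. Zdbf2 normalised read counts were 13979, 11200 and 13636 in WT cells, 17462, 17039 and 17999 in CdxKO cells and 18890, 17188 and 17112 in T/BraKO cells. All 6 mutant libraries lay above all 3 WT libraries. In the fit its log2 fold change was 0.44 (SE 0.11) for CdxKO against WT and 0.45 (SE 0.11) for T/BraKO against WT, folds of 1.35 and 1.37. The difference between the mutants was −0.02 on the log2 scale (95% confidence interval −0.22 to 0.19). The call was lost in edgeR in both mutants, without CdxKO replicate 1 or 3 for CdxKO, and without T/BraKO replicate 1 for T/BraKO. Gpr1, which overlaps the upstream end of Zdbf2, had 11.6 normalised counts in WT, 17.7 in the CdxKO and 17.0 in the T/BraKO libraries, and was called in none of the comparisons.

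Variation between replicate numbers was a measure that the choice of genes had not used. A likelihood ratio test of the replicate number in DESeq2, with genotype in both models, called 5 of the 9 genes, against 47.9% of 14215 genes tested, so the share among the members is close to that of all genes. Nnat gave the smallest adjusted p (1.84e-05 by DESeq2), with geometric means over the genotypes of 1284, 936 and 945 normalised counts in replicates 1, 2 and 3. Impact (DESeq2 adjusted p = 0.000453) stood at 9034, 7755 and 8079, with the same order of replicates in all 3 genotypes. Slc38a4 (adjusted p = 0.00728), Gab1 (0.0134) and Sfmbt2 (0.0309) were called as well by DESeq2. Leaving out WT replicate 1 left only Nnat and Impact called, and 3 genes were called without WT replicate 2 or without T/BraKO replicate 1.

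The adjusted p of Gnas (0.4), Mcts2 (0.752), Peg13 (0.953) and Zdbf2 (0.0591) in this DESeq2 test was above the threshold. Nnat, Impact and Slc38a4 were highest in replicate 1, whereas Gab1 and Sfmbt2 were highest in replicate 2. After each genotype's mean was taken away, Nnat and Slc38a4 correlated at r = 0.958 and Nnat and Impact at r = 0.749 over the 9 libraries, a description of points that share their libraries and replicate numbers.

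**Figure D4:**
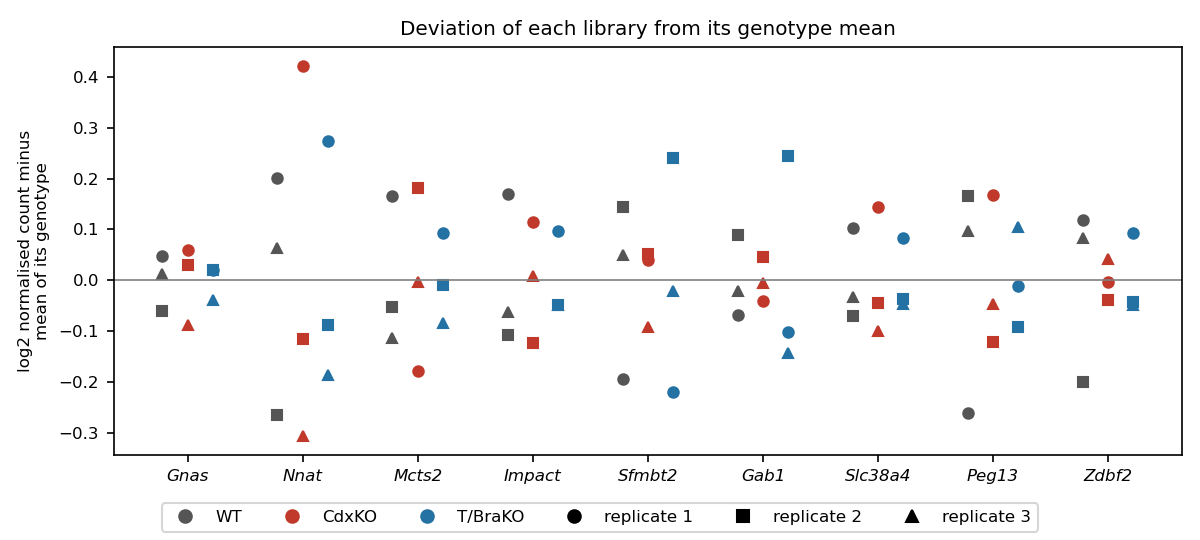
Deviation of each library from its genotype mean (vertical axis, log2 normalised count) for the 9 genes, colour for genotype and shape for replicate number. Circles (replicate 1) lie highest for Nnat, Impact and Slc38a4 in all 3 genotypes, and squares (replicate 2) lie highest for Gab1 and Sfmbt2.

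Over the 9 libraries the patterns most like those of the members were found by Pearson correlation of log2(normalised count + 1). The search covered 12316 genes with a mean of at least 50, again with genotype means and replicate numbers shared by all points. Among so many genes and only 9 points, high values of r can arise between unrelated genes. None was tested, and the closest patterns are named as a description. For Nnat they were Chst11 (r = 0.984), Impact (0.970) and Rflna (0.959), and for Impact they were Emp1 (0.990), Nnat (0.970) and Chst11 (0.965). So Nnat and Impact were each among the 3 genes closest to the other. Both had been chosen with their genotype differences known, and these differences are part of the r. With the genotype means taken away, the r of this pair was 0.749. Mcts2 was closest to another imprinted gene, Usp29 (r = 0.950), then Rflnb (0.944) and Hand1 (0.940). Sfmbt2 was closest to Smchd1 (r = 0.974), a gene known for silencing on the inactive X and at imprinted loci, then to 1700017B05Rik (0.957) and Chst15 (0.950). Gab1 was closest to Ripk2 (r = 0.983), Creb3l1 (0.974) and Marveld1 (0.974). For Zdbf2 the closest were Zfp180 (r = 0.945), Fam102a (0.936) and Lypd6 (0.924). For Slc38a4 they were Pafah1b3 (r = 0.943), Phtf2 (0.935) and Mob1a (0.935). For Peg13 they were Pmaip1 (r = 0.934), Cyp20a1 (0.933) and Shroom3 (0.932), and for Gnas they were Peli3 (0.901), Slc25a53 (0.900) and Blm (0.895).

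Imprinted genes of other domains, most of them in the large clusters, included wider differences in CdxKO. This list was also chosen with earlier results of these data known, so its counts describe these libraries and are no test of the set. Of 46 such genes, 3 were called higher and 7 lower in CdxKO against WT, with a median log2 fold change of 0.21 over the 45 tested, where the shares of all genes were 0.335% and 0.358%. With the block 13 were called higher and 7 lower, against 3.40% and 1.91% of all genes, while edgeR called none higher and 3 lower, and 12 were higher and 8 lower at an unadjusted p under 0.05. Cdkn1c, a cell cycle inhibitor read from the maternal copy, fell from a mean of 1198 to 33.5 normalised counts (log2 fold change −5.16, SE 0.25, DESeq2 adjusted p = 1.83e-87). Grb10 (log2 fold change −1.73, DESeq2 adjusted p = 1.73e-12) and Phlda2 (−1.63, DESeq2 adjusted p = 1.86e-11), both restrainers of growth, fell too. H19, a noncoding RNA of the Igf2 cluster, rose from 34.7 to 540 normalised counts (log2 fold change 3.96, SE 0.92, DESeq2 adjusted p = 0.00475), a call that was lost in edgeR (adjusted p = 0.261) and without WT replicate 1 (0.111) or CdxKO replicate 2 (0.119) by DESeq2. In T/BraKO against WT none of the 46 was called by DESeq2, with 3 at an unadjusted p under 0.05, all higher, and none by edgeR, while the block called 4 higher and 5 lower. In CdxKO against T/BraKO 4 were called higher and 6 lower, against 2.52% and 0.962% of all genes, and with the block 12 and 8, against 7.75% and 6.90%. Among the called genes with a mean of at least 50 in the higher genotype, Cdkn1c (log2 fold change −4.85), Grb10 (−1.92), Phlda2 (−1.61) and Xlr3b (−1.48) had the widest differences.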

How the data were processed

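Strand-specific single-end reads of 76 bases from poly(A) RNA of 9 libraries (3 per genotype) were processed by the authors with cutadapt 1.16, STAR 2.5.2a and RSEM 1.3.0 against RefSeq genes of mm10. The authors deposited gene-level expected counts, RSEM's estimates that need not be whole, and TPM, which is scaled for transcript length within a library. Fractional values made up 3.75% to 4.00% of these estimated counts per library, and a count of 0 allows 3 counts, or 0.0864 to 0.119 CPM (counting error only).

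Expected counts were rounded and tested in R 4.3.3 with the Wald test of DESeq2 1.42.0, which the study's methods name, with genotype as the only term, all 9 libraries, fold changes left unshrunken, and a threshold of 0.05 on the Benjamini-Hochberg adjusted p. The replicate number was tested by likelihood ratio. TPM was not tested and served for levels between genes and for ratios. Titles gave the replicate numbers and labels the genotypes, and no 2 libraries had the same counts. Same-numbered libraries deviated together (r 0.532 to 0.814 over 9 pairs, against −0.690 to 0.134 over 18 other pairs, 12316 genes), so the number was used as a block. The labels call the replicates biological, and p-values measure the spread between these libraries.

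The members and gene lists were chosen with earlier results of these data known. Counts of called genes in a list therefore describe these libraries and are no test of the list. Named genes are the 9 members, every list gene called where 5 or fewer were, otherwise the 4 widest log2 fold changes among called genes whose mean reached 50 in the higher group, and the 3 closest patterns per member. H13, Blcap, Trappc9, Mcts1, Nespas, Gpr1, Eif2ak4, Gcn1l1, Yy1, Lum and list genes called only with the block were named after their values were seen. Alternatives were TMM factors, a filter of 10 counts in 3 libraries, the replicate block, edgeR 4.0.16 with and without it, a fit to the 6 libraries compared, and the omission of each library. The fits were tested on simulated data, where DESeq2 called more unchanged genes than edgeR did, and edgeR is given beside it.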

Additional observations from a re-analysis of the deposited data

Results flagged for a closer look

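Both mutants were compared with the same WT libraries, and for 4 of the 9 genes the direct comparison of the mutants by DESeq2 put the CdxKO level above the T/BraKO level. The log2 fold change of CdxKO against T/BraKO was 1.22 for Nnat (SE 0.22), 0.65 for Mcts2 (SE 0.14), 0.62 for Impact (SE 0.11) and 0.68 for Gab1 (SE 0.12), with all 3 CdxKO libraries above all 3 T/BraKO libraries in each case. For Nnat, Mcts2 and Impact the difference lay mostly in CdxKO, since their log2 fold changes of T/BraKO against WT were 0.44, 0.07 and 0.12. For Gab1 the fitted difference from WT was 0.35 in CdxKO and −0.33 in T/BraKO, each called only with the replicate block or in single alternatives. These genes were chosen with the comparisons known, so the values describe these libraries.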

How the results depend on the processing

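For the fitted differences of the 9 genes in 3 comparisons, 366 values under the alternatives kept direction and call, 23 gained a call, 10 lost one and 6 changed sign, all 6 in differences near 0. Sfmbt2 in T/BraKO against WT ran from −0.11 (without T/BraKO replicate 2) to 0.13 over the omissions of a library, with −0.06 without WT replicate 1. Slc38a4 in CdxKO against T/BraKO reached 0.017 without CdxKO replicate 3 and 0.0091 without T/BraKO replicate 1, from a lowest of −0.11. Zdbf2 in that comparison reached 0.0023 without CdxKO replicate 2 and 0.029 without T/BraKO replicate 1, from a lowest of −0.043. TMM factors changed no call. The cause of the changes below was not tested.

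With the replicate block, members called lower in CdxKO against WT went from 0 to 1. T/BraKO against WT went from 2 to 4 members higher and from 0 to 1 lower; the block changed no other member count by over 1.5 times. Over all genes it gave 471 higher and 265 lower (56 and 60 without it) for CdxKO against WT, 617 and 620 (28 and 177) for T/BraKO against WT, then 1157 and 1030 (404 and 154) for CdxKO against T/BraKO. edgeR called 2 members higher in the first comparison and 0 in the second, and over all genes 5 and 11, 7 and 49, and 181 and 56. With the block edgeR called 4 higher and 1 lower in T/BraKO against WT and 1 lower (Peg13) in CdxKO against T/BraKO, and over all genes 411 and 252, 625 and 757, and 1484 and 1240. Leaving out a library gave 3 to 6 members higher and 0 lower in the first comparison, 0 to 2 higher and 0 to 1 lower in the second, 4 to 5 higher and 0 lower in the third, and 2 to 5 members in the replicate test. For all genes the ranges were 20 to 76 higher and 33 to 64 lower, 15 to 29 and 103 to 186, and 257 to 474 and 96 to 156. Of these lowest counts, 20 and 257 came without CdxKO replicate 1, 33, 15 and 103 without WT replicate 1, and 96 without T/BraKO replicate 1. Depth limits Peg13 most, at 63.0 to 147 normalised counts.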
